A study of Mus musculus with 6 samples.

Results

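The genes of the nucleolar machinery that makes ribosomes were examined in cultured mPASMCs (mouse smooth muscle cells of the pulmonary artery, the contractile cells of its wall) after knockdown of the long noncoding RNA *Snhg18*. The rule takes them by gene symbol and uses no measured value, although it was set with earlier results of these data known. It takes protein-coding genes named for nucleolar proteins (Nop, Nol, Nolc1), the U3-associated proteins of the small subunit (Utp, Imp, Mphosph10), ribosomal RNA processing (Rrp), the Noc and Wdr assembly factors, the small nucleolar ribonucleoproteins (snoRNPs), RNA polymerase I (Polr1, Tcof1), *Bop1*, *Pes1*, nucleolin and the nucleophosmins. Of the 55487 genes in the count table, 65 were members, and all 65 were among the 14531 genes with enough reads to be tested. Cells were transfected with a small interfering RNA (siRNA) against *Snhg18* (si-*Snhg18*, labelled as a knockdown of *Snhg18*) or with a control siRNA (si-NC, labelled as control), with 3 libraries in each group. Both groups were made from purchased primary mPASMCs, and the labels give no mouse strain, no time after transfection and no oxygen level. The labels number the libraries of each group from 1 to 3 but do not say that they came from separate cultures, so p-values measure only the spread between these libraries, which may be technical.

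Ribosomes are built in the nucleolus, where RNA polymerase I copies a long precursor RNA that is folded, modified and cut while ribosomal proteins are added. Box C/D snoRNPs methylate this precursor and box H/ACA snoRNPs convert uridines to pseudouridine, each guided by a small nucleolar RNA (snoRNA) that pairs with the target. The small subunit processome and a separate series of large subunit factors then assemble the subunits, and cells that divide need more of this machinery than resting cells do.

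*Snhg18* (ENSMUSG00000096956, minus strand, chr15:32240565-32244662 in GRCm38) was lower in every si-*Snhg18* library. Its CPM values (reads of the gene scaled to library size, with TMM normalization) were 23.5, 22.4 and 22.2 in si-NC and 10.6, 11.2 and 9.97 in si-*Snhg18*, a log2 fold change of -1.10 ± 0.0985 (SE; adjusted p = 0.00727, edgeR's quasi-likelihood test; exact permutation test, two-sided p = 0.1, the smallest that 3 against 3 libraries allow). Without si-NC 1, si-NC 3 or si-*Snhg18* 3 the change was -1.07, -1.11 and -1.06 and the adjusted p 0.0659, 0.0700 and 0.0703. The libraries held 18097718 to 25988746 counted reads. The intron of *Snhg18* carries *Snord123*, a box C/D snoRNA of 71 bases (minus strand, chr15:32241853-32241923), the class of RNA that the C/D proteins described here hold. It is shown because it is the link between the targeted transcript and the snoRNPs, with box C and box D in capitals, from the GENCODE transcript:

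Snord123: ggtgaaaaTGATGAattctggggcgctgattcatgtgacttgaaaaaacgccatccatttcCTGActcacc

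Box C starts at base 9 and box D at base 62, counted from the 5′ end. *Snord123* itself had 5, 7 and 9 reads in si-NC and 7, 5 and 1 in si-*Snhg18*, so its level could not be read from these mRNA libraries.

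The labels name the cells as smooth muscle cells, and reads of smooth muscle markers were present. Their highest si-NC counts ran from 367 (*Mylk*) to 46707 (*Cald1*), and those of the fibroblast and matrix genes from 49 (*Lum*) to 73179 (*Col1a2*). The summed CPM of the fibroblast and matrix genes was above that of the smooth muscle genes in each library. Of the marker lists, 1 of 10 smooth muscle genes was called, beside 7.36% of all genes (5 lower at an unadjusted p under 0.05, beside 24.9% of all genes in either direction). No tested fibroblast, endothelial, leukocyte or epithelial gene was called (2, 1, 0 and 1 at an unadjusted p under 0.05). The replicate block is a fit in which libraries of the same repeat number are compared with each other. With the block 6 of 10 smooth muscle and 4 of 6 fibroblast and matrix genes tested were called. So were 1 of 4 endothelial, 0 of 2 leukocyte and 2 of 2 epithelial genes tested. All were lower, beside 13.6% of all genes called lower. The summed CPM of 10 smooth muscle genes was 3988, 4187 and 4021 in si-NC and 2934, 3918 and 2993 in si-*Snhg18*. The log2 fold changes of these 10 ran from -1.79 to 0.13, with 8 below 0 and 2 above. *Tagln*, a contractile protein of smooth muscle, fell from 684 ± 6.88 to 481 ± 70.3 CPM (SD, n = 3; log2 fold change -0.51, edgeR adjusted p = 0.0427). *Acta2*, smooth muscle actin, was 867 ± 65.7 and 743 ± 259 CPM (adjusted p = 0.594). The sum of 6 fibroblast and matrix genes ran from 5062 to 6737 in si-NC and from 3043 to 5069 in si-*Snhg18*, and library 2 was the highest in each group. The 6 endothelial genes summed to 12.5 to 14.0 and 13.4 to 15.4 CPM and the 6 leukocyte genes to 7.15 to 10.5 and 5.92 to 12.2. *Pecam1* had no more than 14 reads in any library, and *Adgre1* and *Cd3e* had 0. Other genes of these lists had more. The highest counts in si-NC and si-*Snhg18* were 242 and 247 for *Cdh5* (endothelial) and 166 and 216 for *Csf1r* (leukocyte). The 6 epithelial genes, most of whose reads were of the keratin *Krt19*, summed to 79.8 to 88.3 and 46.3 to 55.5 CPM, with *Sftpc* at 0. Of 12 genes of dividing cells, 0 passed the adjusted p of 0.05 (5 lower at an unadjusted p under 0.05, beside 24.9% of all genes in either direction). With the block 9 were lower, beside 13.6% of all genes. *Mki67*, a marker of dividing cells, was 236 ± 41.4 and 176 ± 53.0 CPM (adjusted p = 0.303, and 0.00848 with the block). The part of these differences in the results below was not tested, and in bulk RNA fewer cells of a type and less RNA per cell cannot be told apart.

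Of the 65 members, 5 passed the adjusted p of 0.05, and all 5 fell in si-*Snhg18*. They were the nucleolar chaperone *Npm1*, the small subunit factors *Utp20* and *Utp23*, and the large subunit factors *Nop53* and *Noc3l*. This was 7.69% of the 65 members, beside 7.36% of all tested genes called in either direction, and the 5 falls stood beside 3.71% of all genes called lower. No member was called higher by edgeR's quasi-likelihood test (2 at an unadjusted p under 0.05, and 2 by DESeq2), beside 3.65% of all genes. At an unadjusted p under 0.05 there were 12 members, 10 lower and 2 higher, beside 24.9% of all genes in either direction. DESeq2 called 9 of the 65 members, beside 2124 of the 14531 tested genes. With the replicate block 13 members were called, 10 lower and 3 higher, which was 20% of the members beside 27.2% of all genes (13.6% lower and 13.6% higher). The 13 included the first 5, and the 8 others were *Nolc1*, *Nol7*, *Rrp8*, *Noc2l* and *Nol10*, lower, and *Rrp7a*, *Nop10* and *Bop1*, higher. The count changed when single libraries were left out, for the members as for the whole table. Each of these fits also had fewer libraries, and the cause was not tested. Without si-NC 1, si-NC 3 or si-*Snhg18* 3, 0 members and 0% of all genes were called (7, 8 and 8 members lower and 2 higher each at an unadjusted p under 0.05). *Npm1* alone was called without si-NC 2 or si-*Snhg18* 1, beside 1.06% and 2.16% of all genes, and 12 members without si-*Snhg18* 2, beside 22.1%.

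Most members moved little. The median log2 fold change over the 65 was -0.096 (quartiles -0.20 and 0.059), beside 0.0072 over all tested genes (quartiles -0.24 and 0.25). The change was below 0 in 44 members, or 67.7%, beside 49.2% of all genes, and within 0.25 of 0 in 47. For 21 members the 3 si-*Snhg18* values lay under all 3 si-NC values, which was 32.3% beside 15.5% of all genes. For 4 members, *Rrp7a*, *Nop10*, *Rrp36* and *Nol6*, they lay above, 6.15% beside 15.4%. The members share their libraries and are not replicates of the condition, so these shares describe the list and carry no p.

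**Figure D1:**
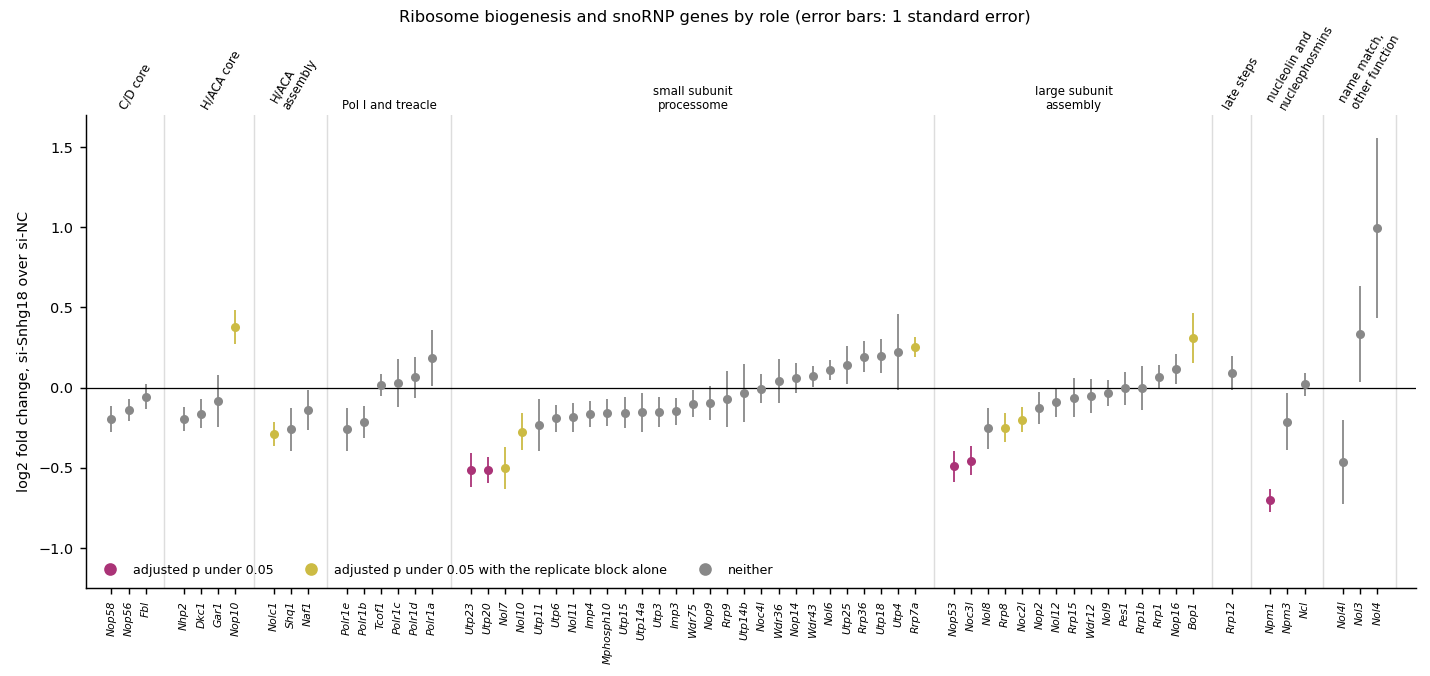
The log2 fold change of each of the 65 genes (y axis, si-*Snhg18* over si-NC; bars, 1 SE) is plotted by role along the x axis. The 5 genes with an adjusted p under 0.05 lie between -0.70 and -0.45, most others lie within 0.25 of 0, and the 3 higher genes called with the replicate block are in 3 different roles.

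*Npm1* had the largest fall and the highest level per length of all members. It encodes nucleophosmin, an abundant chaperone of the outer nucleolus that binds histones and large subunit precursors. *Npm1* (ENSMUSG00000057113, minus strand, chr11:33152287-33163206) had 485, 503 and 486 CPM in si-NC and 300, 322 and 283 CPM in si-*Snhg18*, and the groups were far apart. The means were 492 ± 9.95 and 302 ± 19.5 CPM (SD, n = 3), so si-*Snhg18* cells kept 61.4% of the control level, with a log2 fold change of -0.70 ± 0.0711 (SE; 95% interval -0.87 to -0.53; edgeR adjusted p = 0.00768, and 0.000661 with the block). It was the only member that was both called and changed at least 1.5-fold, beside 3.67% of all tested genes. Leaving out 1 library at a time kept the change between -0.76 and -0.66, and the adjusted p passed 0.05 without si-NC 1 (0.0659), si-NC 3 (0.0700) and si-*Snhg18* 3 (0.0783).

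*Npm1* has processed pseudogenes, copies of its mRNA elsewhere in the genome that can take up its reads. Among them 4, *Gm5611*, *Gm6477*, *Gm9118* and *Gm14681*, matched the transcript at 95.1% to 97.4% identity and held reads equal to 7.54% to 9.79% of those of *Npm1*. Without the block 2 of these fell, *Gm14681* by a log2 fold change of -0.94 (adjusted p = 0.0166) and *Gm6477* of -0.86 (adjusted p = 0.0479), and *Gm9118* and *Gm5611* had -0.64 and -1.53 (adjusted p = 0.0811 and 0.0884, and 0.0163 and 0.0541 with the block). Adding their reads to *Npm1* gave it a log2 fold change of -0.72 (edgeR adjusted p = 0.00809). The step altered the counts of *Npm1* only, so it says little about the other members, and the number called stayed at 5.

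Nucleolin and *Npm3* stood beside *Npm1* in the same group of proteins. *Ncl*, which binds the precursor RNA and ribosomal DNA chromatin, had 634, 630 and 608 CPM in si-NC and 652, 660 and 586 CPM in si-*Snhg18*. Its groups overlapped, with a log2 fold change of 0.020 (95% interval -0.15 to 0.19; adjusted p = 0.892). The ratio of *Npm1* to *Ncl* reads was 0.788 ± 0.0195 in si-NC and 0.477 ± 0.0154 in si-*Snhg18* (SD, n = 3). *Npm3*, a relative of nucleophosmin, was 19.7 ± 2.74 and 17.0 ± 3.38 CPM (adjusted p = 0.497), with overlapping groups. Together the 65 members took 3938 ± 66.5 CPM in si-NC and 3652 ± 116 CPM in si-*Snhg18*, and without *Npm1* 3446 ± 75.9 and 3350 ± 119 CPM. The share of *Npm1* in the reads of all members was 12.5% ± 0.459 and 8.27% ± 0.620 (SD, n = 3).

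**Figure D2:**
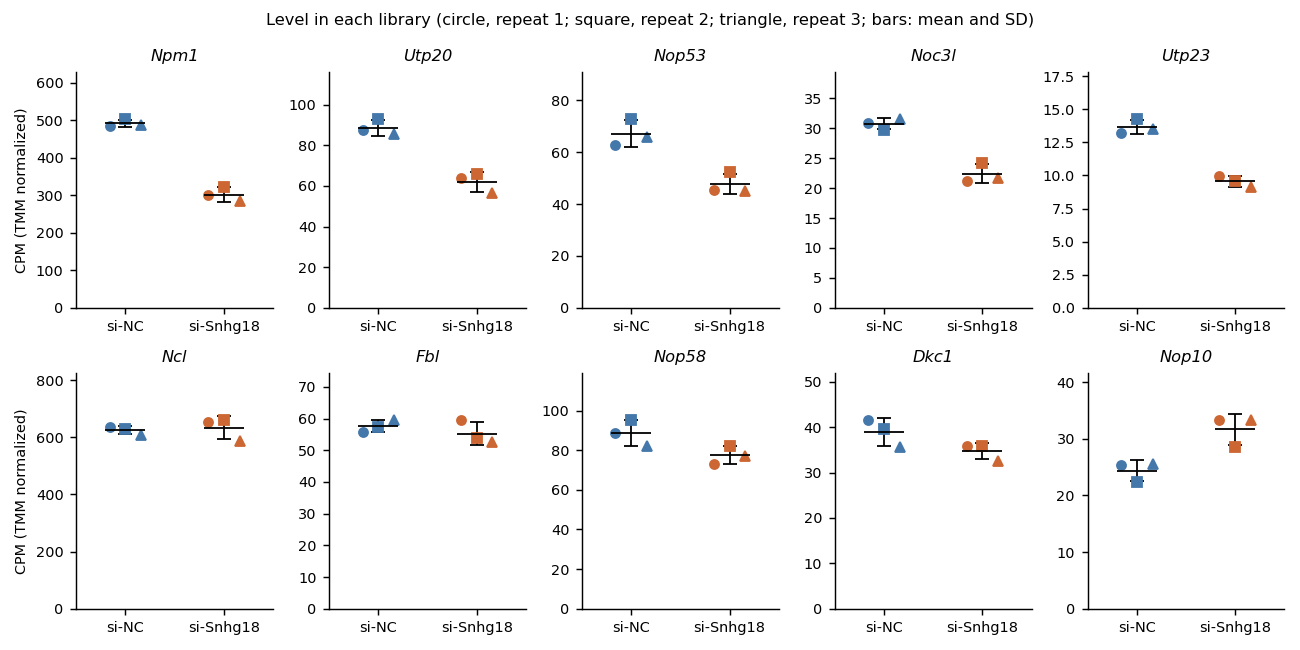
Normalized CPM (y axes, each from 0) of the 5 genes that fell (top row) and of 5 uncalled genes (bottom row) is plotted in the 3 si-NC and 3 si-*Snhg18* libraries, with the marker shape giving the repeat number and bars giving the mean and SD. The groups are separate in the top row, overlap for *Ncl*, *Fbl* and *Dkc1*, and are separate for *Nop58* (lower) and *Nop10* (higher).

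The core proteins of the box C/D snoRNPs had lower values without passing the test. *Nop58*, a scaffold that holds the methylase on the snoRNA, had 88.6, 95.2 and 82.2 CPM in si-NC and 73.2, 82.1 and 77.0 CPM in si-*Snhg18*, which did not overlap (log2 fold change -0.20 ± 0.0827, adjusted p = 0.207). Its partner scaffold *Nop56* had 87.1, 89.0 and 82.4 against 74.4, 79.4 and 80.9 CPM (-0.14 ± 0.0681, adjusted p = 0.264). Fibrillarin (*Fbl*), the methylase, had 55.8, 57.2 and 59.5 against 59.4, 53.8 and 52.6 CPM, with overlapping groups (-0.058 ± 0.0771, adjusted p = 0.689). Over 690 bases its transcript matched that of *Tulp4*, a gene elsewhere, at 99.6% identity on the other strand. *Tulp4* held 12743, 11158 and 13111 reads in si-NC and 21299, 14502 and 13838 in si-*Snhg18*. Whether the *Fbl* counts include such reads was not tested. None of *Nop58*, *Nop56* and *Fbl* was called without the block, beside 7.36% of all genes, or with it, beside 27.2%. At an unadjusted p under 0.05 there were 0 without the block, beside 24.9% of all genes. *Snu13*, which is no member and completes the C/D core by binding the kink-turn of the snoRNA (and of U4 RNA), fell from 57.2 ± 4.77 to 40.9 ± 2.59 CPM (log2 fold change -0.48, adjusted p = 0.0330).

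The 4 core proteins of the box H/ACA snoRNPs had changes of both signs, and none passed the test without the block, beside 7.36% of all genes. At an unadjusted p under 0.05 there were 1 lower and 1 higher, beside 24.9% of all genes in either direction. *Nop10*, the smallest of them, had 25.3, 22.3 and 25.5 CPM in si-NC and 33.3, 28.5 and 33.3 CPM in si-*Snhg18*. All 3 si-*Snhg18* values were the higher ones, and the change was 0.38 ± 0.105 on the log2 scale (adjusted p = 0.0856, and 0.0143 with the block). Dyskerin (*Dkc1*), the pseudouridine synthase, had 41.6, 39.6 and 35.7 against 35.9, 35.8 and 32.7 CPM (-0.16 ± 0.0913, adjusted p = 0.323). *Nhp2*, which binds the snoRNA beside *Nop10*, had 40.4, 41.4 and 42.5 against 38.1, 35.6 and 34.9 CPM, without overlap (-0.19 ± 0.0746, adjusted p = 0.171). *Gar1*, which helps release the modified RNA, had 15.8, 23.0 and 16.8 against 16.6, 18.5 and 17.3 CPM, and its change of -0.084 became 0.10 without si-NC 2. *Nop10* and *Nhp2*, neighbours in the same particle, thus had estimates of opposite sign.

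None of the 3 chaperones of H/ACA assembly was called without the block, beside 7.36% of all genes (1 at an unadjusted p under 0.05, beside 24.9%). *Nolc1* (Nopp140), a scaffold that carries snoRNPs between Cajal bodies and the nucleolus, had 83.2, 89.2 and 82.9 CPM in si-NC and 69.8, 73.6 and 65.3 CPM in si-*Snhg18*. The groups did not overlap (log2 fold change -0.29 ± 0.0738, adjusted p = 0.0672, and 0.0114 with the block). *Shq1*, an early dyskerin chaperone and a low-level gene, had 7.04, 7.60 and 8.22 against 6.09, 6.57 and 6.41 CPM (adjusted p = 0.287). *Naf1*, which *Gar1* replaces in the mature particle, had 17.7, 16.3 and 18.8 against 16.6, 13.9 and 17.4 CPM, with overlapping groups (adjusted p = 0.533).

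Among the members, 6 host 17 of the snoRNAs that such proteins bind, in their introns: 5 in *Nop56*, 4 in *Nop58*, 3 each in *Ncl* and *Wdr43*, and 1 each in *Dkc1* and *Nop53*. Of the 17, 7 had a read in some library and none had more than 8, so host mRNA and snoRNA could not be compared here.

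None of the 6 RNA polymerase I genes was called without the block, beside 7.36% of all genes, or with it, beside 27.2%. In the fit without the block 0 of 6 had an unadjusted p under 0.05, beside 24.9% of all genes. The catalytic subunit *Polr1a* had 124, 91.8 and 124 CPM in si-NC and 149, 103 and 134 CPM in si-*Snhg18*. Library 2 was the lowest of its group in both, so the groups overlapped while each pair was higher (log2 fold change 0.19 ± 0.173, adjusted p = 0.548, and 0.0568 with the block). The second largest subunit *Polr1b* had 20.9, 19.8 and 21.3 against 19.3, 16.7 and 17.5 CPM (-0.21 ± 0.0993, adjusted p = 0.248). *Polr1d*, which RNA polymerase III shares, had 58.2, 53.8 and 74.3 against 66.1, 64.8 and 63.7 CPM (adjusted p = 0.793). *Polr1e* was 13.4 ± 1.22 and 11.2 ± 1.16 CPM, *Polr1c* 28.8 ± 3.36 and 29.4 ± 4.62 CPM, and treacle (*Tcof1*), a cofactor of ribosomal DNA transcription, 54.3 ± 2.17 and 54.9 ± 1.09 CPM.

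Of the 27 members in the small subunit processome, the particle that forms on the U3 snoRNA and the start of the precursor, 2 fell, or 7.41%, beside 3.71% of all genes called lower and 7.36% in either direction, and none was called higher (1 at an unadjusted p under 0.05). *Utp20* (minus strand, chr10:88746607-88826804), a very large scaffold of helical repeats, had 87.5, 92.9 and 85.5 CPM in si-NC and 63.9, 65.7 and 56.6 CPM in si-*Snhg18*. The groups were separate, and the level fell to 70.1% of control (log2 fold change -0.51 ± 0.0819, adjusted p = 0.0208, and 0.00174 with the block). *Utp23* (plus strand, chr15:51877429-51884614), which acts with an H/ACA snoRNP early in 18S processing, had 13.2, 14.3 and 13.5 against 9.97, 9.57 and 9.10 CPM. It fell to 70.0% (-0.51 ± 0.108, adjusted p = 0.0410, and 0.0162 with the block).

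Other processome genes passed with the block alone or in neither fit. *Nol7*, a small nucleolar protein of this particle, had 35.2, 37.2 and 33.6 CPM in si-NC and 20.6, 28.2 and 26.1 CPM in si-*Snhg18* (log2 fold change -0.50 ± 0.132, adjusted p = 0.0742, and 0.0121 with the block), and its exons overlap 187 bases of *Ranbp9* on the other strand. *Rrp7a*, a processome subunit, had 82.9, 83.7 and 81.1 against 102, 93.1 and 99.8 CPM, all higher (0.25 ± 0.0645, adjusted p = 0.0683, and 0.0223 with the block). Its locus overlaps *Serhl* on the other strand. *Nol10*, a WD-repeat processome protein, was 29.2 ± 2.49 and 24.2 ± 2.72 CPM (adjusted p = 0.210, and 0.0446 with the block). *Imp3*, *Imp4* and *Mphosph10*, which form a trio on the U3 snoRNA, had changes of -0.15, -0.16 and -0.16, each without overlap of the groups and with adjusted p of 0.332, 0.263 and 0.302.

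The proteins that first meet the nascent precursor, the t-UTP group, had estimates of both signs. None was called without the block, beside 7.36% of all genes, or with it, beside 27.2%. *Utp4* was at 0.22 and *Wdr43* at 0.070 on the log2 scale, while *Nol11*, *Utp15* and *Wdr75* were at -0.19, -0.16 and -0.10, with adjusted p from 0.253 to 0.606. *Utp4* varied with the repeat number, at 94.8, 67.9 and 95.2 CPM in si-NC and 129, 70.6 and 102 CPM in si-*Snhg18*. *Utp14b*, a low-level gene whose locus lies in *Acsl3*, had 6.99, 6.82 and 7.16 against 8.43, 6.00 and 6.03 CPM, and its sign turned when single libraries were left out. *Utp25* had 14.3, 14.0 and 16.9 against 17.1, 15.8 and 17.0 CPM (adjusted p = 0.497). The remaining 12 processome genes were *Utp3*, *Utp6*, *Utp11*, *Utp14a*, *Utp18*, *Wdr36*, *Noc4l*, *Nop9*, *Nop14*, *Rrp9*, *Rrp36* and *Nol6*. They ran from -0.23 (*Utp11*) to 0.20 (*Utp18*) with adjusted p from 0.226 to 0.975. None of the 12 was called with the block, beside 27.2% of all genes. Of these, *Nol6* had the narrowest spread, at 58.4, 59.9 and 58.4 CPM in si-NC and 62.2, 64.6 and 63.6 CPM in si-*Snhg18*, higher without overlap (0.11 ± 0.0616, adjusted p = 0.331).

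Of the 15 large subunit members 2 fell, or 13.3%, beside 3.71% of all genes called lower and 7.36% in either direction, a share that rests on 2 genes, and none rose without the block (0 at an unadjusted p under 0.05). *Nop53* (minus strand, chr7:15936183-15946074), which brings the RNA exosome to the end of the 5.8S RNA, had 62.7, 72.8 and 65.8 CPM in si-NC and 45.6, 52.4 and 45.2 CPM in si-*Snhg18*. Library 2 was the highest in each group and the groups were separate (log2 fold change -0.49 ± 0.0955, adjusted p = 0.0345, and 0.00227 with the block). *Noc3l* (minus strand, chr19:38788128-38819237), an assembly factor of the early large subunit, had 30.9, 29.7 and 31.5 against 21.2, 24.2 and 21.8 CPM (-0.45 ± 0.0897, adjusted p = 0.0360, and 0.0116 with the block). It fell to 73.0% of control and *Nop53* to 71.2%. *Noc2l*, its relative, was 103 ± 6.56 and 89.9 ± 5.10 CPM (adjusted p = 0.177, and 0.0450 with the block), and *Rrp8*, a base methylase of 28S RNA, 41.8 ± 1.42 and 35.2 ± 3.07 CPM (adjusted p = 0.153, and 0.0462 with the block).

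The PeBoW complex of *Pes1*, *Bop1* and *Wdr12* acts in large subunit processing. It had 1 gene called, and that with the block alone, beside 27.2% of all genes. *Bop1* had 75.5, 57.6 and 71.1 CPM in si-NC and 91.6, 68.4 and 93.2 CPM in si-*Snhg18*, where library 2 was again the lowest in both groups (log2 fold change 0.31 ± 0.155, adjusted p = 0.275, and 0.0115 with the block). *Pes1* was 97.7 ± 4.40 and 97.4 ± 11.6 CPM and *Wdr12* 30.7 ± 2.04 and 29.6 ± 2.97 CPM, with adjusted p of 0.980 and 0.795. *Rrp1*, the member second in level per length, had 169, 165 and 179 against 191, 167 and 180 CPM (0.068 ± 0.0753, adjusted p = 0.621). *Rrp12*, which acts late and in export of both subunits, was 22.9 ± 1.64 and 24.4 ± 1.85 CPM (adjusted p = 0.629). The other 6 large subunit genes, *Nol8*, *Nop2*, *Nop16*, *Nol12*, *Rrp15* and *Rrp1b*, ran from -0.25 (*Nol8*) to 0.12 (*Nop16*) with adjusted p from 0.280 to 0.992, and their groups overlapped.

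**Figure D3:**
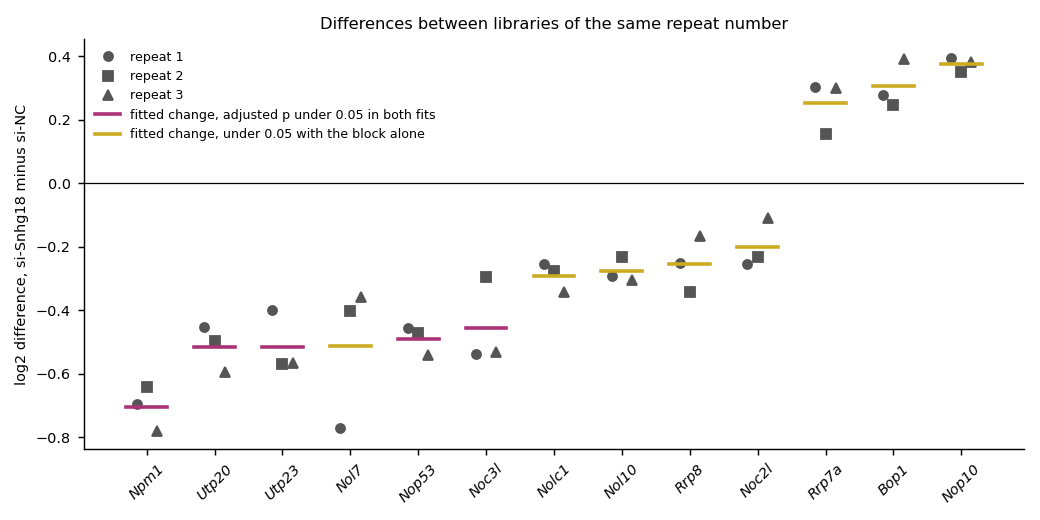
For the 13 genes called with the replicate block (x axis), the log2 difference between the si-*Snhg18* and the si-NC library of the same repeat number is plotted (y axis; circle, square and triangle for repeats 1, 2 and 3) with the fitted change as a line. All 3 differences of each gene have the same sign, 10 genes below 0 and 3 above.

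The 13 genes of the block had 1 sign across the 3 pairs of same-numbered libraries, which the block itself favours. Over all members, 32 were lower in every pair (49.2%, beside 30% of all tested genes), 15 were higher in every pair (23.1%, beside 29.6%) and 18 were mixed. Library 2 was the lowest of its group in both groups for 28 members, or 43.1%, beside 29.8% of all genes, and the highest in both for 16, or 24.6%, beside 32.2%.

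There were 3 members that matched by name but do other work or are not known assembly factors. *Nol3*, an inhibitor of cell death, had 8.50, 9.60 and 7.75 CPM in si-NC and 6.73, 15.4 and 10.5 CPM in si-*Snhg18* (adjusted p = 0.528), and its exons overlap 1530 bases of 4931428F04Rik on the other strand. *Nol4*, the lowest of all members, had 1.12, 0.327 and 1.06 against 2.49, 0.923 and 1.59 CPM (adjusted p = 0.326). *Nol4l* had 2.29, 2.29 and 3.09 against 1.46, 1.92 and 2.19 CPM (adjusted p = 0.325). Without these 3 the median change of the other 62 was -0.098.

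**Figure D4:**
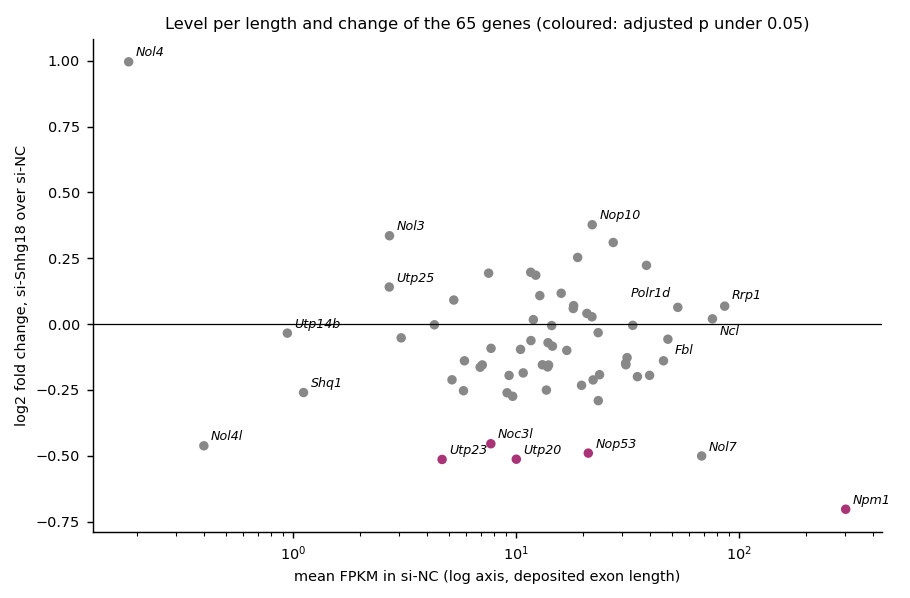
The mean level per length of each gene in si-NC (x axis, FPKM on a log scale) is plotted against its log2 fold change (y axis), with the 5 called genes coloured. *Npm1* is the point at the far right and bottom, the other 4 called genes lie between 4.67 FPKM (*Utp23*) and 21.1 FPKM (*Nop53*), and the 3 lowest genes, *Nol4*, *Nol4l* and *Utp14b*, are spread around 0.

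Per length, *Npm1* was at 301 ± 6.09 FPKM (the CPM divided by the deposited exon length in kilobases) in si-NC, *Rrp1* at 86.3, *Ncl* at 76.1, *Nol7* at 68.1 and *Polr1d* at 53.2. *Fbl* followed at 48.0 FPKM and *Nop56* at 45.9. The lowest were *Nol4* at 0.184, *Nol4l* at 0.399, *Utp14b* at 0.946, *Shq1* at 1.12 and *Utp25* at 2.71. *Npm1* stayed first in si-*Snhg18* at 185 FPKM. The deposited length is that of 1 transcript for 64 of the 65 and departs over 1.5-fold from that of the principal transcript for 6 of them, so on the principal length *Nol7* was at 19.6 rather than 68.1 FPKM and *Nop58* at 51.8 rather than 9.33.

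Genes of the pathway outside the naming rule were taken as 5 lists of known factors, with 109 of 110 tested. Of these 5 fell and 1 rose, or 5.50%, beside 7.36% of all genes, with a median change of -0.081. With the block 11 were lower and 4 higher, beside 13.6% of all genes in each direction. The falls were *Snu13* (given above), *Urb2* (34.3 ± 1.51 to 22.9 ± 1.52 CPM, adjusted p = 0.0195), *Gnl3l* (68.4 ± 2.24 to 44.5 ± 5.70, adjusted p = 0.0240) and *Nifk* (33.0 ± 0.932 to 22.9 ± 1.48, adjusted p = 0.0224), all of the large subunit, and *Ltv1*, a factor of small subunit export and maturation (27.2 ± 0.893 to 18.2 ± 1.20, adjusted p = 0.0205). *Las1l*, part of the nuclease that cuts the spacer between 5.8S and 28S RNA, rose from 44.6 ± 1.83 to 65.7 ± 5.60 CPM (log2 fold change 0.56, adjusted p = 0.0196). Its kinase partner *Nol9*, a member, had 53.1 ± 3.23 and 51.9 ± 2.94 CPM (adjusted p = 0.838). None of these 6 was called when si-NC 1, si-NC 2, si-NC 3, si-*Snhg18* 1 or si-*Snhg18* 3 was left out. At an unadjusted p under 0.05 these fits had 13 to 18 pathway genes, beside 2464 to 3013 of the 14798 to 14950 genes tested. Without si-*Snhg18* 2, 14 pathway genes were called, beside 22.1% of all genes.

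Promoter windows of RefSeq (GRCm38.p6, 250 bases before to 50 after the start) were held for 51 of the 65 members and were searched for 3 motifs on both strands, without excluding overlaps. Some members had 2 or 3 windows, and a gene was counted if any of its windows held the motif. The E-box CACGTG, which reads the same on both strands and is bound by MYC and other helix-loop-helix factors, was in 11 of the 51 members, or 21.6%, beside 11.7% of tested genes with a window and 8.09% of all genes with one. The ETS motif CCGGAAG was in 18, or 35.3%, beside 19.5% and 9.93%. The GC box GGGCGG was in 37, or 72.5%, beside 68.5% and 38.2%. *Npm1*, *Nop53* and *Utp23* had no entry. The windows are shown for *Utp20* and *Noc3l*, which fell, and for *Rrp7a* and *Nop10*, which were higher with the block, each 5′ to 3′ in the direction of the gene with motif matches in capitals. They lie at chr10:88826765-88827064 (*Utp20*, minus strand), chr19:38819188-38819487 (*Noc3l*, minus strand), chr15:83122752-83123051 (*Rrp7a*, minus strand) and chr2:112261676-112261975 (*Nop10*, plus strand):

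Utp20: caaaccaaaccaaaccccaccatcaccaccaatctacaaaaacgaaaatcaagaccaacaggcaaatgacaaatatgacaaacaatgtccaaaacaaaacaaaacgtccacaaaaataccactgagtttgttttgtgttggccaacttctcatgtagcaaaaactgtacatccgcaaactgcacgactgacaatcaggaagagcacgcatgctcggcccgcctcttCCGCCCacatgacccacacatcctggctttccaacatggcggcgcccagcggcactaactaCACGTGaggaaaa

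Noc3l: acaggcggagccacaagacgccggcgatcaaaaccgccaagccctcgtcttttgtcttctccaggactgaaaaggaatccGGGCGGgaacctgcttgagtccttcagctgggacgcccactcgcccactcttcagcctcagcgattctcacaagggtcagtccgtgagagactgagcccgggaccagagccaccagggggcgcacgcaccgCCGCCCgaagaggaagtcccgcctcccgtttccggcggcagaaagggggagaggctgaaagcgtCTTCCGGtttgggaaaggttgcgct

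Rrp7a: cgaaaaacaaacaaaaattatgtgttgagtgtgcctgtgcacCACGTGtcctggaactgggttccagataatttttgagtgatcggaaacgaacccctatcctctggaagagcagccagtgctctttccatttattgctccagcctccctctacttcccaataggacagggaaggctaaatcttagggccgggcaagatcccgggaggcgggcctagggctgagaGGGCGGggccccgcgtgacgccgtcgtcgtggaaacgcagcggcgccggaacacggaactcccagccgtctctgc

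Nop10: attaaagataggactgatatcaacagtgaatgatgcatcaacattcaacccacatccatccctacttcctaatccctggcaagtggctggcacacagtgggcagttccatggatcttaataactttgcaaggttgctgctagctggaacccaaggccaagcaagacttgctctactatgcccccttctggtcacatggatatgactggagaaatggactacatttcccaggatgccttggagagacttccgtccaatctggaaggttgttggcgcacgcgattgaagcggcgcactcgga

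*Utp20* and *Rrp7a*, which had changes of opposite sign, both held an E-box, at 37 bases after and 208 bases before the start, and a GC box within 25 bases before it. *Noc3l* held an ETS motif 25 bases after the start and GC boxes on each strand. The window of *Nop10* held none of the 3.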

How the data were processed

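The authors sequenced TruSeq stranded mRNA libraries of the si-NC and si-*Snhg18* cells and deposited whole-number counts per gene, without normalization, with an exon length and GRCm38.p6 positions. The submitters' processing notes name HISAT2 and mm10. The counter and its strand setting are not given in the sources used here, so reads of overlapping or near-identical genes may be shared. All count columns belonged to the 6 libraries.

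The test was run with edgeR 4.0.16 under R 4.3.3 (filterByExpr with a minimum count of 10, TMM, glmQLFit and glmQLFTest, Benjamini-Hochberg adjustment over 14531 genes, calls at an adjusted p under 0.05). The common biological coefficient of variation was 0.218. FPKM was computed from normalized CPM and the deposited length. Libraries held 18097718 to 25988746 reads, and 3 reads, the floor, were 0.115 to 0.166 CPM per library. Floors cover counting error only. The tests were tried on simulated data. Transcripts, snoRNAs and overlaps came from GENCODE M21, near-identical copies from blastn 2.17.0+ (at least 95% identity over 100 bases), and promoters from RefSeq.

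The pairing of libraries comes from the repeat numbers in the labels. Deviations from the group means of same-numbered libraries correlated at 0.41, 0.74 and 0.36 over all tested genes (across genes, which are not independent replicates). Within a group these deviations cancel out, so likeness of the pair at 0.74 alone can make the other values positive. Correlations between differently numbered libraries are not given, so whether every pair belongs together was not tested. The replicate block is given as an alternative beside the result where it changes it.

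The members and lists were chosen with earlier results of these data known. The fixed list of genes to name holds the called members, the snoRNP core proteins, *Ncl*, *Npm1*, *Polr1a* and *Polr1b*. It also holds the 5 highest and 5 lowest members per length and the 3 largest changes in each direction. Members called with the block and changed at least 1.5-fold are on it, with up to 5 called genes of the other lists in each direction. *Snhg18*, *Myc*, *Mki67* and up to 3 markers per list complete it. Some of these genes are given by mean and SD alone, and some members off the list are given with all values. All other genes named were chosen after their values were seen. Alternatives were the block, DESeq2 1.42.0, limma-voom (limma 3.58.1), RLE factors, library totals, other filters, a 1.5-fold threshold and leaving out each library. Adding pseudogene reads to *Npm1* was chosen after seeing the data.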

Additional observations from a re-analysis of the deposited data

How the results depend on the processing

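Beside 5 members called, DESeq2 called 9 (2 higher), the replicate block 13 (10 lower and 3 higher), testing every gene with a read 3 (all lower), library totals 6 (1 higher, *Rrp7a*), and a 1.5-fold threshold 1. With RLE factors, limma-voom, at least 1 CPM in 3 libraries, or the pseudogene reads added, 5 were called. The range over single libraries left out was 0 to 12 called, 0 to 9 lower and 0 to 3 higher, and -0.12 to -0.066 for the median change. Of all genes 1069 were called, against 3954 with the block, 2124 by DESeq2 and 533 at 1.5-fold, and 0 to 3282 with single libraries left out. Of the other pathway genes 6 were called, against 15 with the block, 10 by DESeq2 and 0 to 14. *Snhg18* stayed between -1.14 and -1.06. Direction was followed over these fits only for members on the fixed list, so others, even some given with all values, were not checked. Among those followed it turned, in uncalled members, when single libraries were left out: *Gar1* ranged from -0.19 to 0.10, *Ncl* from -0.015 to 0.072, *Nol3* from -0.014 to 0.59, *Polr1d* from -0.033 to 0.22 and *Utp14b* from -0.22 to 0.051. The block gained calls for the 8 members given in the report and changed no other member's call. The cause of these changes was not tested, beyond the 1.5-fold threshold and the wider filter, which change the rule or the number of genes tested. With 3 libraries a group, no single exact test can pass 0.05, and members with few reads, such as *Nol4* (SE 0.562), allow wide intervals.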

Other observations

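The genes that supply and drive the nucleolus were looked at beside it. Of 76 tested genes of cytosolic ribosomal proteins (80 listed, a list added after values had been seen), 4 fell and none rose (5.26%, beside 7.36% of all tested genes called; 15 lower and none higher at an unadjusted p under 0.05, beside 24.9% of all genes in either direction), with a median log2 fold change of -0.022, and 12 were lower with the block, beside 13.6% of all genes. *Rps25*, a small subunit protein, had the largest fall, with 241, 231 and 243 CPM in si-NC and 123, 122 and 113 CPM in si-*Snhg18* (adjusted p = 0.00498, edgeR's quasi-likelihood test). *Rpl7*, *Rpl6* and *Rpl14*, of the large subunit, fell by less, *Rpl7* from 512 ± 18.4 to 403 ± 11.5 CPM (SD, n = 3; adjusted p = 0.0289).

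In the MYC network, whose main factor is a known driver of ribosome genes, *Myc* was 77.7 ± 3.98 and 80.1 ± 2.15 CPM (log2 fold change 0.044, adjusted p = 0.734), with overlapping groups. Of 11 tested genes 1 was called (9.09%, beside 7.36% of all genes), *Mlxip*, which rose from 75.1 ± 2.97 to 96.7 ± 7.82 CPM (adjusted p = 0.0470). With the block 4 were called, all higher, beside 13.6% of all genes called higher, among them *Max*, the partner of MYC (86.9 ± 5.43 and 108 ± 10.4 CPM, adjusted p = 0.101, and 0.0166 with the block).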
